A study of Rattus norvegicus with 11 samples.

Results

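The miR-379 to miR-410 cluster is a run of miRNA genes inside the imprinted Dlk1-Dio3 region of rat chromosome 6. Its members were chosen by name and genome position, without use of any measured value, though earlier results of these data were known. Of 32 miRNA numbers looked for, with any -3p or -5p suffix and without star names, 27 were present on both array designs, 4 of them with both arms, which gave 31 members among 340 shared miRNA names. miR-496, miR-544, miR-667 and miR-668 were on the second design alone and were not detected on its arrays, and miR-679 was found on neither. Of the 31 members, 13 were detected by the scanner software on at least 5 of the 11 arrays and were tested, 13 were detected on 1 to 4 arrays, and 5 were detected on none.

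The arrays measured miRNAs in total RNA of pancreatic islets, 100 ng per sample, from female Sprague Dawley rats. HFD daughters had fathers fed pellets with 43% fat, and Control daughters had fathers fed chow with 9% fat. All fathers were mated at 15 weeks with chow-fed females, and all daughters were weaned onto chow at 3 weeks, with islets taken at 13 weeks, so no daughter ate the high-fat diet. There were 6 Control and 5 HFD samples, each 1 array, and since litters and fathers of single daughters are not labelled, p-values treat the samples as independent. Samples are called by their group and the number in their label. A first array design held Control 602, 613, 615 and 639 with HFD 603, 607, 644 and 653, and a second held Control 635 and 652 with HFD 640. Design, slide and scan coincided. Diet differences over both designs were fitted with design as a block unless stated otherwise. Those of the first design alone needed no block, and those of the second are plain differences from the Control mean.

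miRNAs are short RNAs that pair with messenger RNAs, mainly through bases 2 to 8 (the seed), and lower their output. In this region Dlk1, Rtl1 and Dio3 are protein-coding genes expressed from the paternal chromosome, whereas the long noncoding RNA Meg3 and the miRNAs are expressed from the maternal one and are thought to be cut from long shared transcripts. The miRNAs are abundant in brain and are also known from pancreatic endocrine cells, where their human counterparts are richer in beta cells than in alpha cells.

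In the RefSeq tables for the rat build GRCr8 all 31 members were matched to 27 miRNA genes, which lie on the plus strand at chr6:134543445-134579838, a stretch of 36.4 kb. Dlk1 (chr6:134192491-134199779), Meg3 (chr6:134274056-134306249) and Rtl1 (chr6:134325231-134335780) lie on one side and Dio3 (chr6:135107072-135108933) on the other. A pair of long noncoding RNA genes span the cluster. LOC102555254 (chr6:134349619-134558975) contains the first 12 miRNA genes, Mir379 to Mir376b, and LOC120103623 (chr6:134559128-134586223) contains the other 15, Mir376a to Mir410. Whether a miRNA lies in an exon or intron of these was not examined.

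The sequences below belong to the members on which the results turn. miR-382 and miR-369-5p had the smallest p for the diet, miR-154 was bright on an array that stood apart (HFD 653), and miR-379, miR-411, miR-376a and miR-376c were dim on that same array. They are RefSeq mature sequences, 5′ to 3′, with the seed in capitals. Of the 31 array names, 7 match a RefSeq mature name exactly. The others carry no arm suffix, apart from miR-409-3p and miR-409-5p, which carry an older name. For names without a suffix the arm that the probes detect is not known from the files. Both arms of the gene are therefore shown where such a member is listed.
rno-miR-382-5p: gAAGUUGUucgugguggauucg
rno-miR-382-3p: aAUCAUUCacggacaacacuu
rno-miR-369-5p: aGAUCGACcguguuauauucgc
rno-miR-154-5p: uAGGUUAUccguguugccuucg
rno-miR-154-3p: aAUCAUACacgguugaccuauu
rno-miR-379-5p: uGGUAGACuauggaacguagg
rno-miR-379-3p: cUAUGUAAcaugguccacuaac
rno-miR-411-5p: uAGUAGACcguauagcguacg
rno-miR-411-3p: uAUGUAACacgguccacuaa
rno-miR-376a-5p: gGUAGAUUcuccuucuaugag
rno-miR-376a-3p: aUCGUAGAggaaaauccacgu
rno-miR-376c-5p: gUGGAUAUuccuucuauguuu
rno-miR-376c-3p: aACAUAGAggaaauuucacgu

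Although the genes lie side by side, the members had mostly different seeds. The 53 mature arms of the 27 genes held 50 distinct seeds, and 3 seeds were shared by a pair of arms each. AUACAAG was shared by miR-381-3p and miR-539-3p, GGUUGUC by miR-410-5p and miR-494-5p, and UGGAUAU by miR-376b-5p and miR-376c-5p. Several arms were nevertheless alike over their length. The edit distance, the number of single-base changes, insertions and deletions between sequences, was 3 for miR-379-3p and miR-411-3p, 4 for miR-376a-3p and miR-376c-3p, and 2 for miR-376b-5p and miR-376c-5p. It was 7 for the 5p arms of miR-379 and miR-411, and 7 for those of miR-376a and miR-376c. How far such pairs share signal on the arrays was not tested.

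Detection ranged from members seen on every array to members seen on none. miR-154, miR-300-3p, miR-369-5p, miR-382 and miR-410 were detected on all 11 arrays. miR-329, miR-376a, miR-376c, miR-379 and miR-494 were detected on 10, all but HFD 653. miR-487b was detected on 9, miR-411 on 7 and miR-495 on 5. miR-134, miR-300-5p, miR-323, miR-380 and miR-543 were detected on none. In bulk islet RNA, fewer cells that make a miRNA and less of it per cell cannot be told apart.

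Among the 18 untested members, miR-369-3p, miR-376b-5p, miR-381 and miR-539 were detected on all 3 arrays of the second design and on 0 of the first. miR-376b-3p and miR-409-5p were detected on Control 652 and HFD 640, and miR-409-3p and miR-541 on HFD 640. miR-381 and miR-409-5p have other probes on the second design. The share of all shared miRNAs detected on the second design alone was not counted, so these detections are no result about the members. miR-485 was the 1 untested member seen in both groups of the first design, on Control 613 and 639 and on HFD 607 and 644. miR-299 was detected on HFD 607, 644 and 640, miR-377 on HFD 607, and miR-412 and miR-758 on HFD 653. Of 4 genes with both arms on the arrays, Mir300 and Mir369 each had 1 arm tested, and Mir376b and Mir409 had none.

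**Figure D1:**
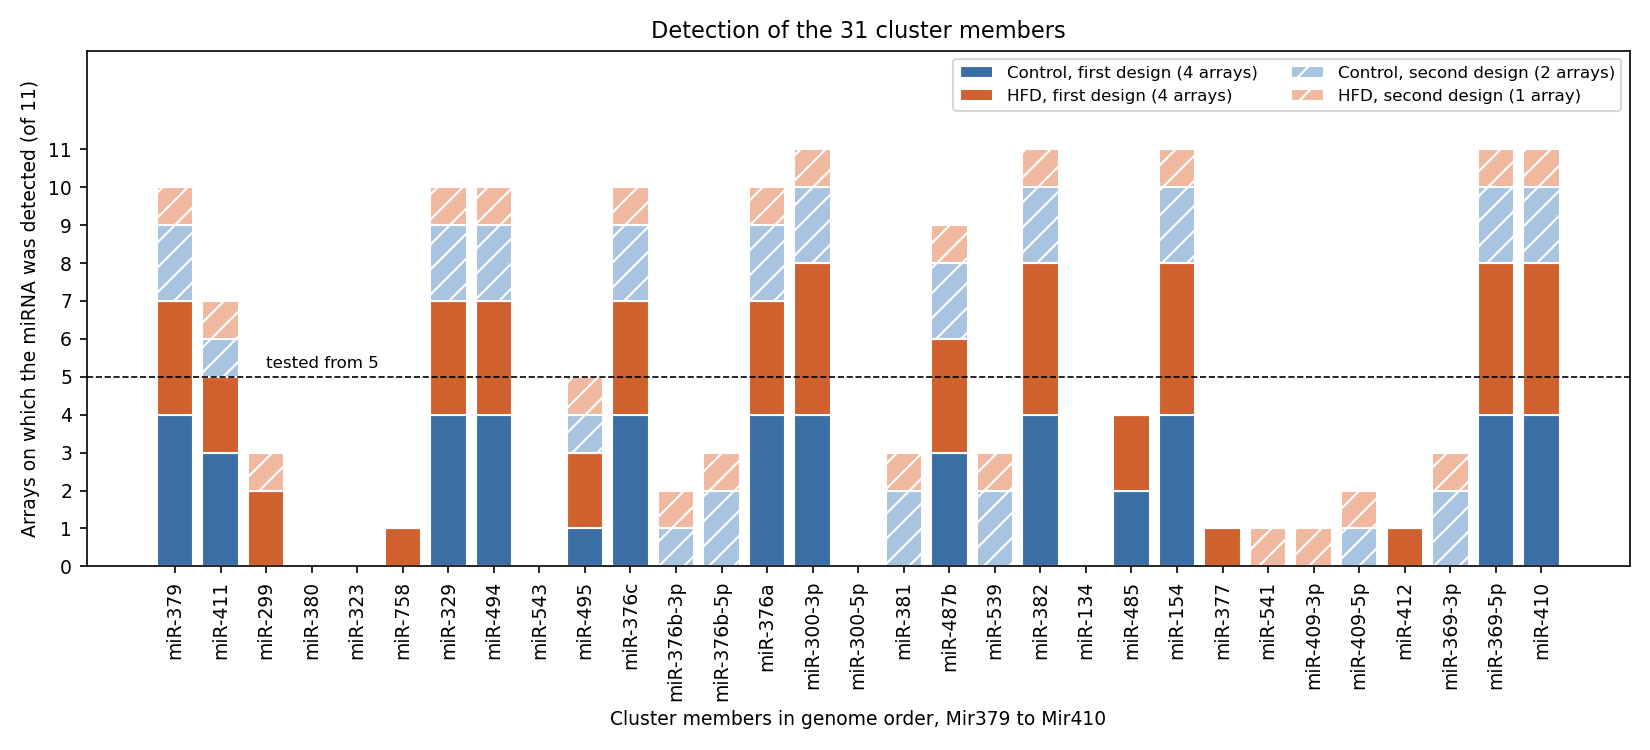
Number of arrays (y axis, of 11) on which the scanner software detected each of the 31 members, in genome order from Mir379 to Mir410 (x axis), stacked by group and array design, with the minimum of 5 arrays for testing dashed. The 13 tested members reach 5 or more, and miR-369-3p, miR-376b-5p, miR-381 and miR-539 show the 3 hatched arrays of the second design alone, where miR-381 has other probes.

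The number of members detected per array was the same on average in both groups of the first design, 12.25 ± 1.71 in Control and 12.25 ± 4.11 in HFD (SD, n = 4). It ran from 10 to 14 in Control. It was 11, 16 and 15 on HFD 603, 607 and 644 and 7 on HFD 653, so the equal averages rest on HFD 653. On the second design Control 635 and 652 detected 15 and 19 members and HFD 640 detected 22. Those arrays also differed in the number of all shared miRNAs detected, at 130, 163 and 184, so the members' order was that of the whole array.

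HFD 653 stood apart in signal quality. It detected 105 of the 340 shared miRNAs, fewer than each of the 7 arrays that shared its design, where the highest number was 157. The SD of its negative control spots, scaled like the miRNAs, was 20.1, compared with 2.62 to 3.82 on those 7. Results that rest on this array are given with and without it.

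No member passed the test for a difference by the father's diet. With limma and Benjamini-Hochberg adjustment over 152 miRNAs, 0 of the 13 tested members passed an adjusted p of 0.05, beside 0 of 152 (0%) over all miRNAs, and the smallest adjusted p of a member was 0.987. At an unadjusted p of 0.05 the count was 0 of 13 members, beside 3 of 152 (1.97%). The sign of the difference was above 0 for 9 of 13 members, near the 71.1% over all miRNAs. The median difference was 0.15 on the log2 scale for the members and 0.066 for all miRNAs. On the first design alone 8 of 13 members read above 0, against 61.2%, and the groups of 4 arrays were fully apart for 0 of 13, against 1.32%.

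The intervals give the range of differences compatible with these values under this scaling. The 95% confidence interval left out a 2-fold difference in both directions for 12 of 13 members (80.9% of all miRNAs), the exception being miR-382. It left out a 1.5-fold difference for 5, namely miR-154, miR-300-3p, miR-410, miR-494 and miR-495 (54.6% of all). For miR-495 this bounds nothing, since 6 of its 8 first-design values were set to the floor and the floor narrows the interval. The intervals of miR-411 and miR-376c include floor values too. The median standard error was 0.22 for the members and 0.18 for all miRNAs. The interaction between diet and array design reached an unadjusted p under 0.05 for 0 of 13 members (0.658% of all), a test in which HFD 640, alone in its group on that design, borrows the spread of the rest.

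The general level of the differences follows the scaling of the arrays. Taking the 75th percentile over every shared miRNA name, detected or not, moved the median of all 152 from 0.066 to -0.15, and left 5 of 13 members above 0 (23.7% of all miRNAs) with a member median of -0.044. Quantile normalization left 4 of 13 above 0 (32.2% of all), with medians of -0.083 for the members and -0.074 for all. Arrays left unscaled gave 12 of 13 above 0 (88.2% of all), with medians of 0.23 and 0.16. A count of members above 0 thus holds for the scaling used.

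miR-382 had the smallest p of the members. On the first design its log2 scaled signal was 4.51, 5.29, 4.97 and 5.42 on Control 602, 613, 615 and 639, and 5.14, 5.61, 5.52 and 6.62 on HFD 603, 607, 644 and 653. On the second design it was 6.03 and 6.18 in Control and 6.40 in HFD. The 4 HFD values of the first design overlapped Control at HFD 603, HFD 653 was the highest of all arrays and Control 602 the lowest. The fitted difference was 0.58 ± 0.27 (SE), 1.49-fold higher in HFD, with a 95% interval of -0.0099 to 1.17 (limma adjusted p = 0.987). The first design alone gave 0.68 and the second 0.29. The 2-sided exact permutation p over 210 within-design splits was 0.043, and 0.988 after adjustment over the 152 miRNAs. Without HFD 653 the difference was 0.35 ± 0.18 (SE), and without both HFD 653 and Control 602 it was 0.23. Both of its probes read higher in HFD on the first design. Without HFD 653 the brighter probe read 41.1 in HFD against 32.2 in Control. The dimmer probe then read 2.30 against 1.79, and it read 28.6 on HFD 653.

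miR-369-5p, the 5p product of the last gene but one of the cluster, came next. Its values were 5.97, 6.44, 6.41 and 6.59 on Control 602, 613, 615 and 639, and 6.20, 6.50, 6.66 and 7.02 on HFD 603, 607, 644 and 653. The second design gave 5.63 and 5.92 in Control and 5.99 in HFD. Again Control 602 was the lowest and HFD 653 the highest of the 8 first-design arrays, and the groups overlapped. The difference was 0.24 ± 0.16 (SE; limma adjusted p = 0.987, 2-sided exact permutation p = 0.2, adjusted 0.988), or 0.13 without HFD 653 and 0.14 without Control 602. Its sister arm miR-369-3p was detected on the second design alone, at scaled signals of 40.1 and 31.2 in Control and 43.8 in HFD.

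miR-410 and miR-154 come from the same distal end of the cluster. miR-410 read 6.57, 7.01, 6.91 and 7.10 on Control 602, 613, 615 and 639 against 6.67, 7.20, 7.17 and 7.28 on HFD 603, 607, 644 and 653, with 5.94 and 6.21 in Control and 6.25 in HFD on the second design. In each group 1 array was low, Control 602 and HFD 603, and the other 3 lay between 6.91 and 7.10 in Control and between 7.17 and 7.28 in HFD. The difference was 0.18 ± 0.14 (SE), 0.10 without Control 602 and 0.28 without HFD 603. miR-154 read 7.76, 8.20, 8.35 and 8.11 in Control and 7.98, 8.24, 8.18 and 8.83 in HFD in the same order of arrays, with 6.80 and 6.94 in Control and 7.09 in HFD on the second design. HFD 653 was the 1 first-design HFD array above the Control range. The difference was 0.21 ± 0.16 (SE), 0.082 without HFD 653 and 0.13 without Control 602.

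miR-487b and miR-300-3p lie in the middle of the cluster. miR-487b read 4.21, 5.08, 4.91 and 5.07 on Control 602, 613, 615 and 639 and 4.85, 5.10, 5.29 and 5.07 on HFD 603, 607, 644 and 653, with 6.55 and 6.53 in Control and 6.69 in HFD on the second design, where it has other probes. The low Control 602 value, where the miRNA was not detected, lay apart from 7 values between 4.85 and 5.29. Of these 7, the HFD 653 value was not detected either, with a software error of 115% of the signal. The difference was 0.23 ± 0.17 (SE), and 0.085 without Control 602. miR-300-3p read 6.28, 6.88, 6.65 and 6.89 in Control and 6.53, 6.75, 6.98 and 6.80 in HFD, with 5.69 and 5.86 in Control and 6.10 in HFD on the second design. The difference was 0.15 ± 0.14 (SE), 0.060 without Control 602, 0.091 without HFD 640, and 1 of its 2 probes read higher in HFD on the first design.

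miR-329 showed the same pair of outlying arrays in sharper form. It read 4.44, 5.61, 5.54 and 5.48 on Control 602, 613, 615 and 639 and 5.09, 5.66, 5.49 and 6.43 on HFD 603, 607, 644 and 653, with 5.97 and 6.47 in Control and 6.32 in HFD on the second design. 5 of the 8 first-design arrays lay between 5.48 and 5.66, and it was not called detected on HFD 653. The difference was 0.33 ± 0.28 (SE), 0.13 without HFD 653, 0.12 without Control 602 and -0.058 without both.

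miR-495 was near the lower limit. It lay at the floor of 3.36 on 6 of the 8 first-design arrays, and read 3.73 on Control 613 and 3.74 on HFD 644. On the second design it read 4.59 and 4.82 in Control and 4.98 in HFD. The difference was 0.070 ± 0.12 (SE), and single arrays set it. It was 0.0091 without HFD 644, 0.0031 without HFD 640, 0.034 without Control 635 and 0.15 without Control 613.

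The remaining tested members differed by less than their standard errors. The differences were 0.022 ± 0.31 for miR-376a, -0.029 ± 0.22 for miR-494, -0.11 ± 0.27 for miR-411, -0.13 ± 0.27 for miR-376c and -0.18 ± 0.31 for miR-379 (SE). For these 5, HFD 653 lay over 0.5 below the mean of the other first-design HFD arrays, although for miR-411 HFD 603 lay at the floor as well. Without it their differences were 0.30 ± 0.20, 0.10 ± 0.20, 0.041 ± 0.25, 0.059 ± 0.23 and 0.089 ± 0.21 in the same order (SE), and all 13 members read above 0, against 78.9% of all miRNAs, with a member median of 0.13.

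**Figure D2:**
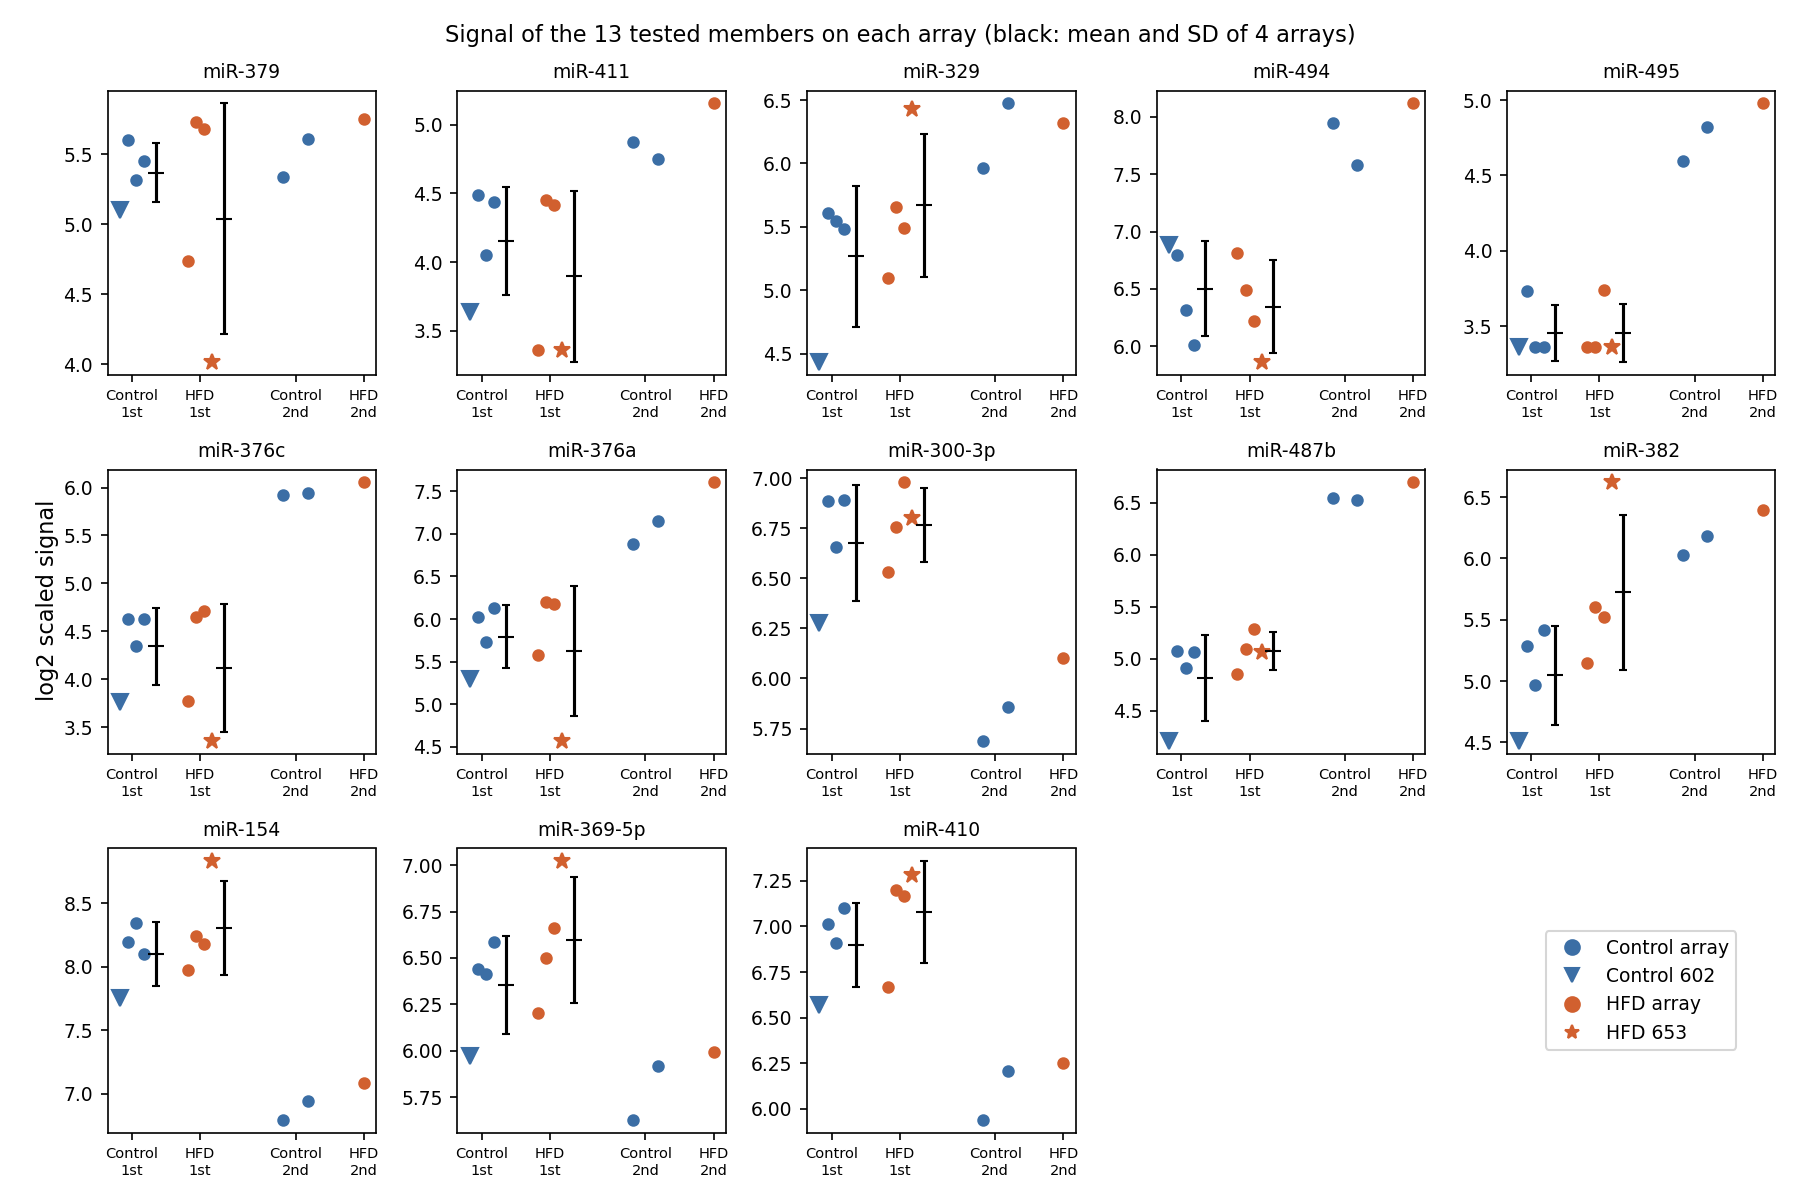
log2 scaled signal (y axis, own scale per panel) of the 13 tested members on each array, by group and array design (x axis), with mean and SD of the 4 arrays per group of the first design in black. The groups overlap in every panel on the first design, Control 602 (triangle) is the lowest Control array in 11 panels, and HFD 653 (star) lies above the other HFD arrays in panels such as miR-382 and below them in panels such as miR-379.

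**Figure D3:**
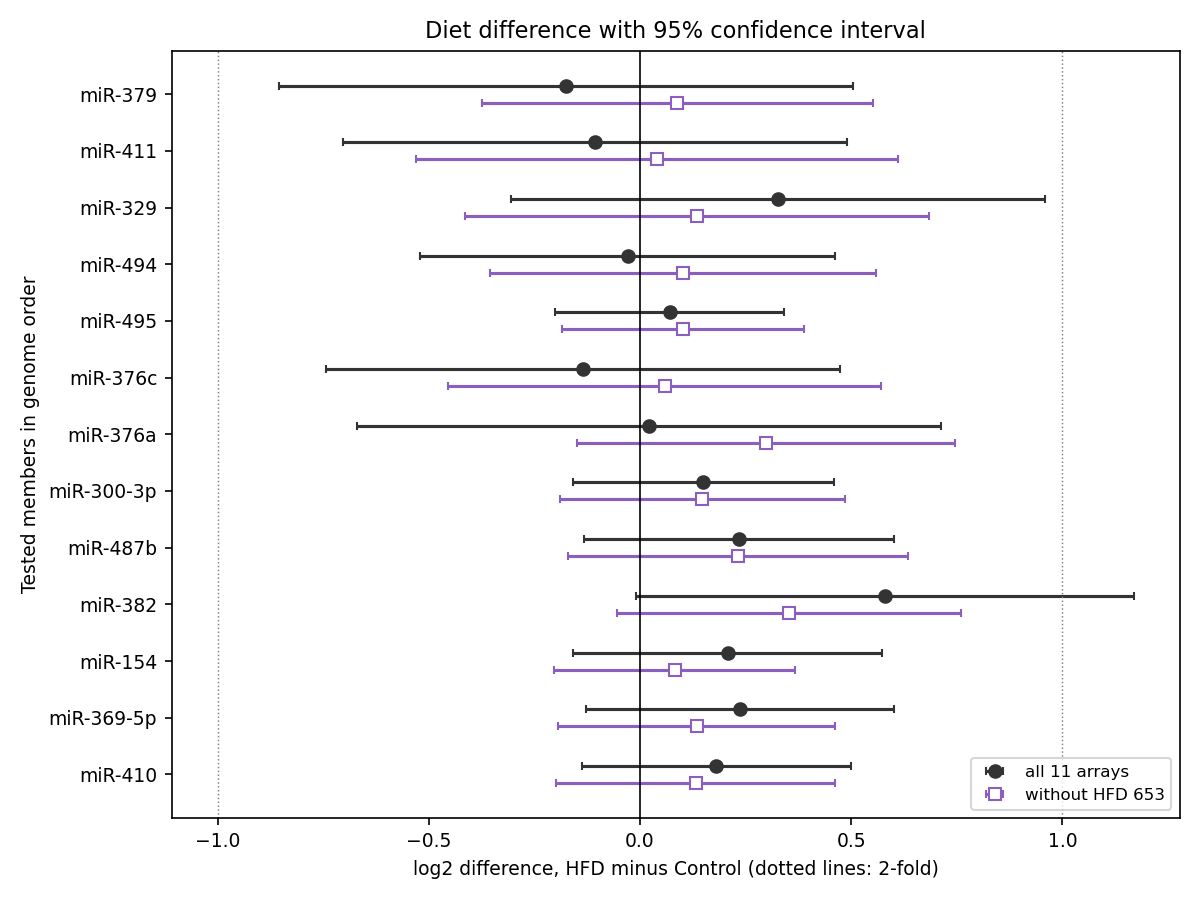
Fitted log2 difference, HFD minus Control (x axis), with 95% confidence interval for the 13 tested members in genome order (y axis), over all 11 arrays (filled) and without HFD 653 (open squares), with dotted lines at 2-fold. All intervals include 0, and the interval over all arrays passes the 2-fold line for miR-382 alone, at 1.17.

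On the second design HFD 640 read above the Control mean for all 13 tested members, against 78.3% of all miRNAs. The differences there ran from 0.10 for miR-329 to 0.58 for miR-376a, with a median of 0.27. HFD 640 read above both Control arrays for 12 of 13 members, all but miR-329, against 62.5% of all miRNAs. This is 1 HFD array against 2 Control arrays, so it has no test, and HFD 640 was also the array that detected most miRNAs. A difference of the same sign on both designs was seen for 8 of 13 members, against 52% of all miRNAs.

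The members also varied between arrays of 1 group, many of them on the same arrays. Control 602 was the lowest of the 4 first-design Control arrays for 11 of 13 members, the exceptions being miR-494 and miR-495 (50% of all miRNAs). It lay over 0.5 below the mean of the other Control arrays for 8 members (23% of all), with a median of -0.53 for the members and -0.18 for all miRNAs. Among HFD 603, 607 and 644, HFD 603 was the lowest for 11 of 13 members (52% of all). For miR-494 the order was turned, since Control 602 (6.88) and HFD 603 (6.82) were its highest first-design arrays.

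Against the mean of its design, the median of the 13 members was -0.45 on Control 602 and -0.24 on HFD 603. It was 0.19 on HFD 607, 0.26 on HFD 644, 0.16 on Control 613, 0.11 on Control 639 and -0.038 on Control 615. Over all 152 miRNAs the same medians ran from -0.14 on Control 602 to 0.085 on Control 615. A median of 13 values varies more than one of 152, so the ranges are given as a description. Without Control 602 the count above 0 was 9 of 13 (64.5% of all) and the median difference 0.077. Without both Control 602 and HFD 653 it was 10 of 13 (67.1% of all) with a median of 0.058. Without HFD 603 and HFD 653 it was 13 of 13 (76.3% of all) with a median of 0.25.

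HFD 653 split the members. It lay over 0.5 above the mean of the other first-design HFD arrays for 4 members, miR-382 (by 1.20), miR-329, miR-154 and miR-369-5p (21.7% of all miRNAs). It lay over 0.5 below that mean for 5, at -1.41 for miR-376a, -1.36 for miR-379, -1.02 for miR-376c, -0.72 for miR-411 and -0.64 for miR-494 (also 21.7% of all). It was the highest of the 8 first-design arrays for 5 members (24.3% of all) and the lowest for 4 (21.1% of all). The shares over all miRNAs show that such spread was common on this array. None of the 5 low members was detected there, and miR-376c, miR-411 and miR-495 lay at the floor.

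The software's own error on HFD 653 was wide for the dim members, at 115% of the signal for miR-487b and 185% for miR-379. Of the 5 tested members detected there, it was 10.1% for miR-154, 20.5% for miR-410 and 24.3% for miR-369-5p. For miR-300-3p and miR-382 it was 28.6% and 32.1%. Both probes of miR-154, miR-329, miR-369-5p, miR-382 and miR-410 read higher on HFD 653 than on the other HFD arrays, and 0 of 2 probes did for miR-376a, miR-376c, miR-379, miR-411, miR-494 and miR-495. In position, the 5 low members lay within the first 15.9 kb of the cluster, as did miR-329. miR-382, miR-154 and miR-369-5p lay 26.5 to 36.0 kb from Mir379. The other 4 tested members differed less from the mean of the other first-design HFD arrays. They were miR-495 (10.6 kb, by -0.13), miR-300-3p (16.5 kb, 0.049), miR-487b (19.4 kb, -0.0090) and miR-410 (36.3 kb, 0.27). A link between position and the values on HFD 653 was not tested.

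**Figure D4:**
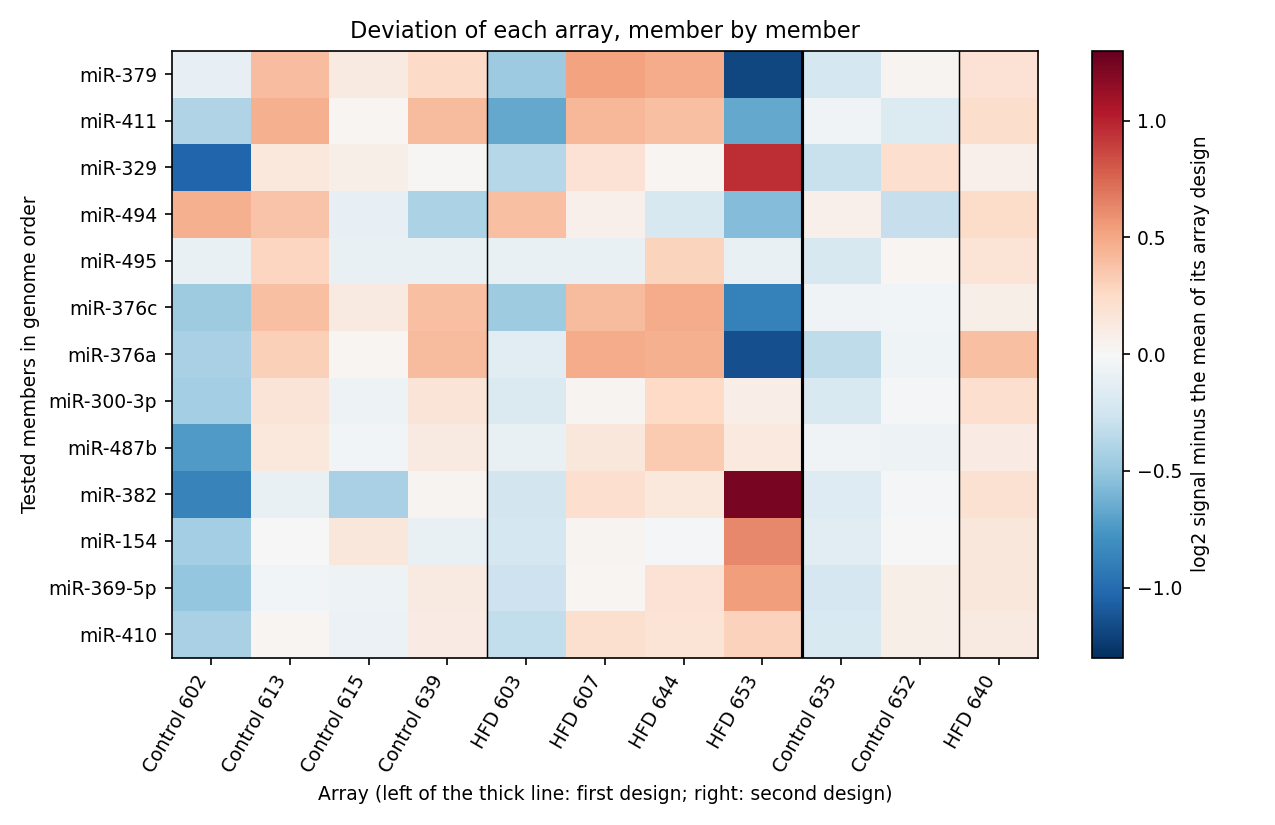
log2 scaled signal of each tested member (rows, genome order) on each array (columns) minus the mean of its array design, with red above and blue below. The column of Control 602 is blue in all rows but miR-494, and the column of HFD 653 is blue for miR-379, miR-411, miR-494, miR-376c and miR-376a and red for miR-329, miR-382, miR-154 and miR-369-5p.

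No miRNA of the same imprinted region outside the cluster passed the test either. Of 12 such names 7 were tested, and all 7 read above 0 (71.1% of all miRNAs), with a median difference of 0.35. With the 75th percentile over every shared name it was 4 of 7 (23.7% of all) and a median of 0.12, and quantile normalization gave a median of 0.061. Leaving out Control 602 gave 6 of 7 above 0 (64.5% of all) and a median of 0.22, and leaving out HFD 653 as well gave 6 of 7 (67.1% of all) and a median of 0.069. Control 602 was the lowest first-design Control array for 7 of 7. On HFD 653, 0 of 7 lay over 0.5 below the mean of the other HFD arrays, and 3 of 7 lay over 0.5 above. The difference between these miRNAs and the cluster members was not tested.

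The samples carried the markers of endocrine islet cells. miR-375 and miR-7a, both abundant in islets, and miR-7b were detected on all 11 arrays, and miR-375 read 11.86 to 12.41 on the first design. Neuronal miRNAs are of interest because the cluster is abundant in neurons. Of 9 such names, miR-124, miR-9, miR-138 and miR-218 were detected on no array. The summed scaled signal of the 9 was 732.7 to 1324.2 on first-design Control arrays and 895.1 to 1386.5 on HFD arrays, highest on HFD 653, and 663.9, 682.6 and 1012.0 on Control 635, Control 652 and HFD 640. miR-212 was the brightest of the list on every array, at 10.02 on Control 602 and 9.90 on HFD 653, and weighs most in these sums. On HFD 653 miR-129 was at its highest of the first design (8.48), whereas miR-132 (4.50) and miR-137 (at the floor) were at their lowest. Of the 9, 5 were tested and 4 read above 0 in HFD, beside 71.1% of all miRNAs.

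Markers of non-endocrine cells varied widely between arrays. The summed signal of the acinar miRNAs miR-216a and miR-217 ran from 21.0 to 622.6 in first-design Control, where Control 602 was the highest, and from 106.0 to 665.9 in HFD, where HFD 603 was the highest. The leukocyte list of 5 names ran from 56.8 to 68.9 in Control and from 56.6 to 399.4 in HFD, again highest on HFD 603. The fibroblast and smooth muscle list ran from 830.5 to 1136.7 in Control and from 914.8 to 1357.6 in HFD, and the endothelial list from 472.2 to 617.5 and from 439.5 to 796.6, with HFD 603 highest in both. miR-122 of liver and the 4 muscle miRNAs were detected on no array. miR-217 lay at the floor of 3.36 on every first-design array, so the acinar sums there are nearly miR-216a alone. Control 602 and HFD 603, on which most cluster members were low, had the highest acinar signal of their groups on the first design. The summed signal of miR-375, miR-7a and miR-7b was the lowest of each group there. It was 10395.7 on Control 602, with Control up to 14742.8, and 10925.0 on HFD 603, with HFD up to 13436.0. miR-375 alone was lower on Control 613 (11.88) than on Control 602 (11.93). Next in miR-216a came Control 613 (8.74) and HFD 607 (8.24). On these arrays the median of the members lay above the mean of the design, at 0.16 and 0.19. The part of other cell types in the members' levels was not tested.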

How the data were processed

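Labelled RNA was hybridised to 1-colour Agilent miRNA arrays, 1 array per sample. Per the file headers, Agilent Feature Extraction 10.5.1.1 (first design) and 10.7.3.1 (second design) wrote the deposited spot intensity, already background-subtracted and not scaled between arrays, and the detection calls. The authors also deposited log2 tables. For the first design these equal log2 of the software's total intensity plus 50 for 340 of 340 miRNAs per array, and for the second log2 of that total where detected, except in 7 cells, at a tolerance of 0.01. Column medians were 5.68 to 5.83 on the first design and 6.69, 7.01 and 6.78 for Control 635, Control 652 and HFD 640 over the shared names. The submitters' processing notes name RMA and Partek without a role or version.

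Here the mean signal of spots without an outlier flag was summed over probes per miRNA, and arrays were brought to a common 75th percentile, taken over the 85 miRNAs that all 11 arrays detected. A floor at 10.3 (log2 3.36), the 1st percentile of the scaled values called detected, replaced lower values before log2 was taken. The 152 miRNAs detected on at least 5 arrays were fitted in R 4.3.3 by limma 3.58.1 with a block for array design and 2-sided tests, with Benjamini-Hochberg adjustment at 0.05. The number of arrays limits the precision. The files hold no mean raw spot signal, so the normexp and RMA-like alternatives used the median raw signal.

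miRNAs were matched between designs by name, of which there were 350 and 677. 26 shared names have no probe in common, among them the members miR-377, miR-381, miR-409-5p, miR-487b, miR-494 and miR-543. Members and lists were chosen with earlier results of these data known. Every member is named, the 8 tested members of smallest p are given array by array, the 2 of smallest p have a permutation test, and miRNAs outside the cluster are named as cell markers alone. Array design, slide and scan cannot be told apart. Genome positions come from RefSeq's GRCr8 table by name.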

Additional observations from a re-analysis of the deposited data

Results flagged for a closer look

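Of 26 groups of 4 first-design arrays of the 13 tested members, 3 met Dixon's criterion for 1 array far from the others, and in 2 of the 3 the floor fixed the ratio. Chance meets it in about 1 of 20 groups without a floor. For miR-329, Control 602 read 4.44 against 5.48 to 5.61 on the other Control arrays, a ratio of gap to range of 0.889. For miR-495 the ratio was 1 in both groups, with Control 613 at 3.73 and HFD 644 at 3.74 while the other 3 arrays of each group lay at the floor of 3.36, so that any value above the floor on the remaining array gives that ratio.

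Some members that were detected too seldom to be tested were detected on HFD arrays alone. The share of all shared miRNAs detected on HFD arrays alone was not counted, so this is no result about the members. HFD 607 and HFD 640 also detected the most shared miRNAs of their designs, at 157 and 184. miR-299 was detected at a scaled signal of 10.9 on HFD 607, 11.1 on HFD 644 and 16.5 on HFD 640, against at most 9.27 on first-design Control arrays and 10.2 and 14.1 on Control 635 and 652. On HFD 653 it read 74.4 and was not called detected. miR-377 was detected at 8.79 on HFD 607, under the floor used here, against at most 6.86 in first-design Control. miR-409-3p was detected at 23.2 on HFD 640, against at most 14.6 on any Control array. miR-541 was detected at 25.2 on HFD 640, against 19.3 and 17.6 on Control 635 and 652. miR-412 at 62.5 and miR-758 at 133.6 were detected on HFD 653, where the other 10 arrays read below 3 for both, and negative control spots were widely spread on that array. None of these has a test.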

How the results depend on the processing

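Over 30 alternatives 0 members passed the adjusted p of 0.05. The smallest adjusted p of a member (limma) was 0.678, without HFD 653 and HFD 603, a choice made after seeing the data. There 3 of 13 members had an unadjusted limma p under 0.05, beside 10 of 152 miRNAs. In each other alternative the count of members was 0 or 1. Without scaling 1 miRNA outside the cluster was called, miR-150, a marker of leukocytes. miR-382 read above 0 in all 30, from 0.050 (RMA-like summary) to 0.72 (outlier spots kept). The count of members above 0 was 5 of 13 when the 75th percentile was taken over every shared name (23.7% of all miRNAs), 4 with quantile normalization (32.2%) and 3 with the RMA-like summary (26.3%). It was 13 of 13 in the authors' deposited tables (86.8%) and with array weights (80.3%), 22 of 31 with no filter on dim miRNAs (58.2%) and 5 of 5 among those detected on all arrays (74.1%). The cause was not tested for these or for the sign changes that follow, apart from the other numbers of miRNAs that the filters leave.

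Several members had the other sign under some setting. With the 75th percentile over every shared name the differences were -0.017 for miR-154, -0.075 for miR-300-3p, -0.20 for miR-376a and -0.044 for miR-410. With median scaling they were -0.0033 for miR-300-3p and -0.13 for miR-376a. With quantile normalization they were -0.083 for miR-300-3p, -0.038 for miR-329, -0.29 for miR-376a, -0.027 for miR-410 and -0.18 for miR-487b. Without scaling they were 0.054 for miR-376c, 0.16 for miR-411 and 0.044 for miR-494. With normexp they were 0.030 for miR-379, 0.075 for miR-494 and -0.012 for miR-495. With the RMA-like summary they were -0.017 for miR-300-3p, -0.028 for miR-369-5p, -0.13 for miR-376a, -0.033 for miR-410, -0.043 for miR-487b and -0.16 for miR-495. In the authors' deposited tables they were 0.034 for miR-376c, 0.21 for miR-379, 0.043 for miR-411 and 0.14 for miR-494.

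The software's total signal gave 0.15 for miR-411, the median over probes -0.19 for miR-495, outlier spots kept 0.044 for miR-379, and the floor at the 5th percentile 0.034 for miR-376c and 0.075 for miR-411. Without the block for array design miR-376a read -0.18 and miR-495 -0.11, and on the first design alone miR-376a read -0.17. Array weights gave 0.052 for miR-376c, 0.14 for miR-379, 0.099 for miR-411 and 0.11 for miR-494. Without both HFD 653 and Control 602, a choice made after seeing the data, miR-329 read -0.058, miR-379 0.035 and miR-494 0.20. Without HFD 653 and HFD 603, also chosen after seeing the data, miR-376c read 0.27, miR-379 0.32, miR-411 0.30 and miR-494 0.017.

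Leaving out 1 array at a time gave -0.17 to 0.30 for miR-376a, -0.27 to 0.059 for miR-376c, -0.33 to 0.089 for miR-379, -0.26 to 0.041 for miR-411 and -0.16 to 0.10 for miR-494, and kept the other 8 tested members above 0. The count of members above 0 then ran from 8 to 13 and their median from 0.077 to 0.21, against 92 to 120 of 152 and 0.034 to 0.094 for all miRNAs. No paired analysis was possible because the groups share no replicate numbers. Members near the floor, such as miR-495, miR-411 and miR-376c, are limited by signal over background.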
